A study of Mus musculus with 4 samples.

Results

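The replication-dependent and linker histone genes encode the proteins that package newly made DNA, and 30 of them were followed here among the 19938 genes that the array measured with a probe set of their own. They were the genes whose probe set (the group of probes summarised into 1 value) carried a single gene symbol beginning with H1f, H2ac, H2bc, H3c or H4c and a digit. Each of the 30 had 1 such probe set. There were 8 H1, 4 H2A, 9 H2B, 3 H3 and 6 H4 genes. A further 26 probe sets carried several symbols of which at least 1 was such a histone gene, and these are given separately: 24 carried 11 to 20 symbols, and 2 carried the symbols of a pair of genes.

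The core histones H2A, H2B, H3 and H4 form the nucleosome, and H1 binds the DNA that links nucleosomes. Most of their genes lie in clusters, are transcribed mainly in S phase, and give short messenger RNAs that end in a stem-loop in place of a poly(A) tail, so their level falls when a cell stops replicating its DNA. A subset of these genes is known, mainly from human cells, to give polyadenylated transcripts as well in cells that have left the cycle, among them the human counterparts of H2bc21 and H1f2. Other members of the set are germ-line forms or are made independently of replication.

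The source was RAW 264.7, a line of macrophage-like mouse cells able to become osteoclasts, which resorb bone. The 4 groups were cells with a control vector, unstimulated; cells with a control vector after 72 h of RANKL and M-CSF, the cytokine pair that drives osteoclast formation; cells with a vector expressing the microRNA miR-155, unstimulated; and cells with that vector after the same 72 h. All cells were cultured in medium with serum and antibiotics, the cytokine dose was given as 20 ng/ml without saying whether that applied to each, and the series text calls the controls wild-type where the sample labels give a control vector. The promoter of the vectors, and whether cells were clones or pools, were not given in the sources used here. Each group had 1 array, so none of the differences below has a replicate check and none was tested. The number of arrays limits the precision.

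The mature miRNA that the vector is named for is shown with its seed, bases 2 to 8, in capitals, from RefSeq (GRCm38.p6, chr16:84714143-84714165, plus strand).
mmu-miR-155-5p: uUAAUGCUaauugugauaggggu

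RefSeq promoter windows (GRCm38.p6, 250 bases before to 50 after the gene's start) were matched for 26 of the 30 genes, and not for H2bc4, H2bc21, H3c7 and H4c14. The 160 bases before the start are printed 5′ to 3′ for 10 of them, chosen because genes of the same class with opposite or unlike responses can be set beside each other: H2bc14, H2bc18 and H2bc3 against H2bc8, H1f1 and H1f5 against H1f2 and H1f3, and H4c6 against H4c9. Capitals mark matches on either strand to CCAAT (the CCAAT box), TATAAA (the TATA box), ATTTGCAT (the octamer known from H2B promoters), AAACACA (the H1 box) and GGTCCG (letters of the element that the factor HINFP is known to bind in human H4 promoters). No motif lies within another, though matches may touch or overlap.
H2bc14, chr13:21721884-21722043, plus strand: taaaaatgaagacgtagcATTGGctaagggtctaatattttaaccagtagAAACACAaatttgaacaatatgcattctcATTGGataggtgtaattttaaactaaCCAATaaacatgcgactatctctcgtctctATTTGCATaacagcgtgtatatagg
H2bc18, chr3:96269540-96269699, plus strand: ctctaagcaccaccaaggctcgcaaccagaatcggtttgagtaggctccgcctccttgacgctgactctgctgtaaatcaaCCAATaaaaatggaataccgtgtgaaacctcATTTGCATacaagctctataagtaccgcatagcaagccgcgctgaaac
H2bc3, chr13:23746574-23746733, plus strand: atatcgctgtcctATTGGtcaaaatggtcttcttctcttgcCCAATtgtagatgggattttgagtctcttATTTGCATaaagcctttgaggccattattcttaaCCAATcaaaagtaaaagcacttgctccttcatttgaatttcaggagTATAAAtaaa
H2bc8, chr13:23571240-23571399, plus strand: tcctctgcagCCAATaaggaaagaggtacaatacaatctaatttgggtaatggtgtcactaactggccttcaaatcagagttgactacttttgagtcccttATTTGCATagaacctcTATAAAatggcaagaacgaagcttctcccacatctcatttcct
H1f1, chr13:23763508-23763667, plus strand: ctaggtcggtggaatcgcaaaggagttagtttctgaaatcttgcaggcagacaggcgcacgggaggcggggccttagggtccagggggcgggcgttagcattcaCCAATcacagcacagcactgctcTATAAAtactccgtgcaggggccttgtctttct
H1f5, chr13:21780626-21780785, minus strand: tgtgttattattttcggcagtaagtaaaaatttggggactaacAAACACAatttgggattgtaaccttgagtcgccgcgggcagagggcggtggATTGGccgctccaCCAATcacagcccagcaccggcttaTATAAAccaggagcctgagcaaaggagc
H1f2, chr13:23738647-23738806, plus strand: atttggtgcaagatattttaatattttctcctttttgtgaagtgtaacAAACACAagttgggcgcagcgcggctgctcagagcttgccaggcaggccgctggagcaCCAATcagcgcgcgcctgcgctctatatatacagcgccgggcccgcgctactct
H1f3, chr13:23554872-23555031, plus strand: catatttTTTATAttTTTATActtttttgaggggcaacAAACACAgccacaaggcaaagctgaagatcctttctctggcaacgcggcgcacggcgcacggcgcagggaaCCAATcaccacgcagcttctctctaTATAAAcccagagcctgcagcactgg
H4c6, chr13:23551669-23551828, minus strand: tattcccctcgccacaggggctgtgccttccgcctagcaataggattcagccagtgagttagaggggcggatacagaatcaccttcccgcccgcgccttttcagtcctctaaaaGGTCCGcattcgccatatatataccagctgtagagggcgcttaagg
H4c9, chr13:22041363-22041522, minus strand: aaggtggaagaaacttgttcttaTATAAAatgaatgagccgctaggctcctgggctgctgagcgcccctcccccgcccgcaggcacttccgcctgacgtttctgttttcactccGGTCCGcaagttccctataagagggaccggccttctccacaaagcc

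Each motif was searched on both strands, and matches further upstream or after the start are counted here but not printed. The octamer was in 5 of 7 H2B and 3 of 4 H2A windows and in 0 of 8 H1, 2 H3 and 5 H4 windows, against 570 of 32851 promoter windows (1.74%). GGTCCG was in 5 of 5 H4 windows, against 8.25% of all windows, and in 4 of them it began 47 or 46 bases before the start. The H1 box was in 4 of 8 H1 windows, against 7.18% of all, and those 4 were H1f2, H1f3, H1f5 and H1f6. It was also in 2 of 4 H2A and 2 of 7 H2B windows, and in 0 of 2 H3 and 0 of 5 H4 windows. CCAAT was in 21 of 26 windows, against 37.4% of all, and TATAAA in 15 of 26, against 13.6%. Between genes that were higher (6 windows) and lower (12 windows) after stimulation in control cells, CCAAT was in 6 and 11, TATAAA in 3 and 8, the octamer in 1 and 5, the H1 box in 2 and 4, and GGTCCG in 0 and 4. No H4 gene is among the former. A further 8 windows belong to genes that stayed within 1.5-fold there. Of these, CCAAT was in 4, TATAAA in 4, the octamer in 2, the H1 box in 2 and GGTCCG in 3. Differences between these groups were not tested. H1f2, H1f3 and H1f5 each hold an H1 box and a CCAAT box, and H2bc3, H2bc8, H2bc14 and H2bc18 each hold an octamer and a CCAAT box. A match is a description of the letters in a window and not a binding site.

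Probe set values are log2 expression values, so a difference of 1 is 2-fold. The floor was 4.25, the 95th percentile of 1205 olfactory and vomeronasal receptor probe sets, which these cells are not known to use. Of the 30 genes, 27 lay above it on every array, H1f6 and H1f8 on some and H3c7 on none. The 95th percentile of the receptor probe sets' absolute differences served as a noise reference and for stimulation was 0.48 with the control vector and 0.415 with the miR-155 vector; for miR-155 against control it was 0.37 without and 0.475 with stimulation. It comes from dim probe sets and does not stand for replicate error. Over all genes the stimulated control array stood apart, with Pearson correlations of 0.950 to 0.965 to the other arrays, which correlated with each other at 0.989 to 0.993. All 6 macrophage markers lay above the floor on every array, although 4 of them were at least 1.5-fold lower on the stimulated control array, against 10.4% of all genes. There 6 of 6 osteoclast markers were at least 1.5-fold higher, against 8.72% of all genes. With stimulation in miR-155 cells 5 of 6 osteoclast markers were at least 1.5-fold higher, against 2.47% of all genes. Of the macrophage markers 0 were at least 1.5-fold lower in these cells, against 2.62%. Of 6 T and B cell markers 2 lay above the floor on each array, of 4 granulocyte markers 0 to 1, and of 6 fibroblast markers 4 to 5, the added one being the matrix protein gene Dcn on the stimulated control array (3.48, 5.04, 3.54 and 4.05 in the order of the groups above). Their part in the results was not tested.

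**Figure D1:**
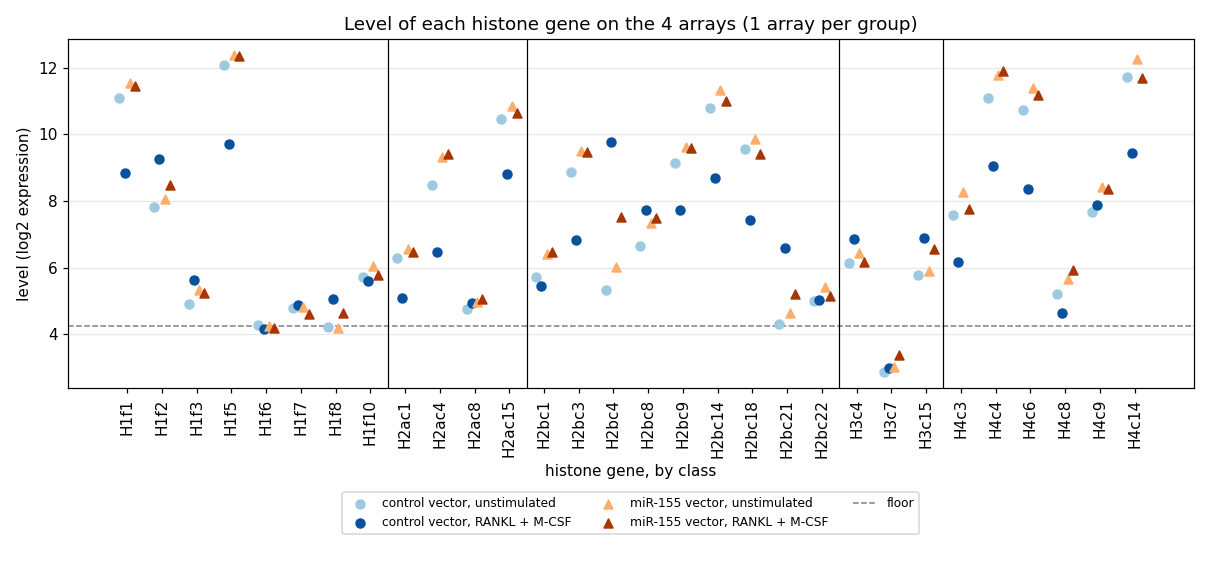
Level of each of the 30 histone genes (vertical axis, log2 expression) on the 4 arrays, 1 point per array, with genes on the horizontal axis in the order of their class; the dashed line is the floor of 4.25, and levels of different genes are not comparable. The stimulated control array lies far below the other 3 for 13 genes such as H4c6, and above them for H2bc4.

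In control cells the histone genes split into opposite groups after 72 h with RANKL and M-CSF. Of the 30 genes, 13 were at least 1.5-fold lower, against a background of 10.4% of all genes, and all 13 were also at least 2-fold lower, against 4.71%. Another 8 were at least 1.5-fold higher, against 8.72% of all genes, and 5 of these were at least 2-fold higher, against 3.91%. The remaining 9 lay within 1.5-fold. The median over the 30 was -0.20 (all genes 0.02), a value that describes neither group: it was -2.04 over the 13 lower and 1.11 over the 8 higher genes, which these values themselves define. All of these differences rest on the array that stood apart.

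The H4 genes, whose protein pairs with H3 at the centre of the nucleosome, were lower in 4 of 6 cases. H4c6 stood at 10.74 without and 8.37 with stimulation in control cells, and at 11.39 and 11.17 in miR-155 cells. H4c14 stood at 11.73 and 9.43 in control cells and at 12.25 and 11.70 in miR-155 cells. Both genes were lowest on the stimulated control array. The difference in control cells was 5.18-fold lower for H4c6 (-2.37) and 4.91-fold lower for H4c14 (-2.29), and H4c4 was at -2.04. H4c3 read 7.57 and 6.16 in control cells and 8.27 and 7.77 in miR-155 cells, and was at -1.41. H4c8 (-0.58) and H4c9 (0.21) stayed within 1.5-fold.

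Of the H2A genes, 3 of 4 were lower. H2ac4 read 8.48 without and 6.48 with stimulation in control cells, and 9.31 and 9.40 in miR-155 cells. H2ac15 read 10.46 and 8.81 in control cells and 10.85 and 10.65 in miR-155 cells. For both genes the stimulated control array was the lowest of the 4. The differences in control cells were -2.01 and -1.65, and H2ac1, a testis-type H2A, was at -1.19. H2ac8 was at 0.19.

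The 9 H2B genes held 4 that were lower and 3 that were higher. H2bc4 read 5.34 without and 9.77 with stimulation in control cells, and 6.004 and 7.52 in miR-155 cells. It was 21.5-fold higher in the stimulated control cells (4.42), the largest difference of the 30 genes in either direction. H2bc21 read 4.32, next to the floor, and 6.58 in control cells, and 4.64 and 5.21 in miR-155 cells, a 4.79-fold difference in control cells (2.26). H2bc8 was higher by 1.09. In contrast, H2bc14 read 10.78 and 8.68 in control cells and 11.34 and 11.005 in miR-155 cells, and H2bc18 read 9.56 and 7.42 against 9.86 and 9.41. These 2 genes were lower by 4.29-fold and 4.42-fold in control cells, H2bc3 was at -2.02 and H2bc9 at -1.41. The germ-line gene H2bc1 (-0.29) and H2bc22 (0.05) stayed within the noise reference.

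The linker histones divided in the same way. H1f5 read 12.07 and 9.70 in control cells and 12.38 and 12.34 in miR-155 cells, and H1f1 read 11.09 and 8.83 against 11.54 and 11.43. Both are somatic subtypes and were lower in stimulated control cells, at -2.36 and -2.26. H1f2, the somatic subtype H1.2, went the other way, at 7.81 and 9.24 in control cells and at 8.04 and 8.48 in miR-155 cells, a 2.70-fold higher value in control cells (1.43). H1f3 read 4.91 and 5.62 in control cells and 5.34 and 5.23 in miR-155 cells, a difference of 0.71 in control cells. The oocyte subtype H1f8 lay below the floor without stimulation (4.22 and 4.18) and read 5.07 in stimulated control and 4.65 in stimulated miR-155 cells, at least 1.76-fold higher in the former and at least 1.31-fold in the latter. The testis subtypes H1f6 (4.29, 4.17, 4.26 and 4.19 in the order of the groups) and H1f7 (4.78, 4.88, 4.81 and 4.62) and the replication-independent subtype H1f10 (5.71, 5.61, 6.04 and 5.77) stayed within the noise reference for stimulation in both vectors.

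The H3 genes with a probe set of their own included none that was 1.5-fold lower. H3c15 read 5.76 and 6.90 in control cells and 5.89 and 6.56 in miR-155 cells, and H3c4 read 6.14 and 6.85 against 6.45 and 6.18. Their differences in control cells were 1.13 and 0.71. H3c7 was below the floor on every array, at 2.86 and 2.99 in control cells and 3.02 and 3.38 in miR-155 cells. The probe sets of H3c4, H3c15 and H1f2 differ from the other 27 in their annotation, which lists complementary DNA clones but no RefSeq messenger RNA, and all 3 are among the 8 higher genes. What transcript forms they read was not tested.

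The probe sets shared by many genes, which cannot be assigned to 1 of them, were lower throughout in stimulated control cells. The 10 shared H3 probe sets, each annotated with 12 symbols, had a median of 13.49 without and 11.69 with stimulation in control cells, and of 13.81 and 13.56 in miR-155 cells. Their differences in control cells lay between -1.96 and -1.76, the opposite direction to H3c15 and H3c4. The 5 H4 probe sets annotated with 11 symbols lay between -1.92 and -1.87, the 7 H2B probe sets with 14 or 15 symbols between -1.86 and -1.502, and the 2 H2A probe sets with 19 or 20 symbols at -1.34 and -1.24. A probe set of H4c11 and H4c17 was at -1.35 and one of H2bc6 and H1f4 at -0.82. These probe sets share probes or sequence and are not independent readings; among the H2B and the H4 sets, 2 each held identical values. Histone genes of a class are near-identical, so the single-gene probe sets may also pick up RNA of their neighbours.

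Genes of opposite response lay next to each other in places, and genes of like response in others. In the RefSeq gene order (GRCm38.p6), used only for order, 23 of the genes lie on chromosome 13 and 4 on chromosome 3. On chromosome 13, 11 genes were at least 1.5-fold lower and 5 higher in stimulated control cells, and on chromosome 3, 2 were lower and 2 higher. H4c6 (-2.37) is followed directly among the histone genes by H1f3 (0.71), and H3c4 (0.71) by H4c4 (-2.04). H2bc4 (4.42), H1f6 (-0.12), H4c3 (-1.41) and H1f2 (1.43) follow each other. Direct neighbours of like response were H2bc3 (-2.02) and H2ac4 (-2.01), and on chromosome 3 H2bc21 (2.26) and H3c15 (1.13). The H2ac8 and H2bc8 promoter windows overlap on opposite strands, and these genes read 0.19 and 1.09, while for the germ-line pair H2ac1 and H2bc1, which also overlap, the values were -1.19 and -0.29.

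**Figure D2:**
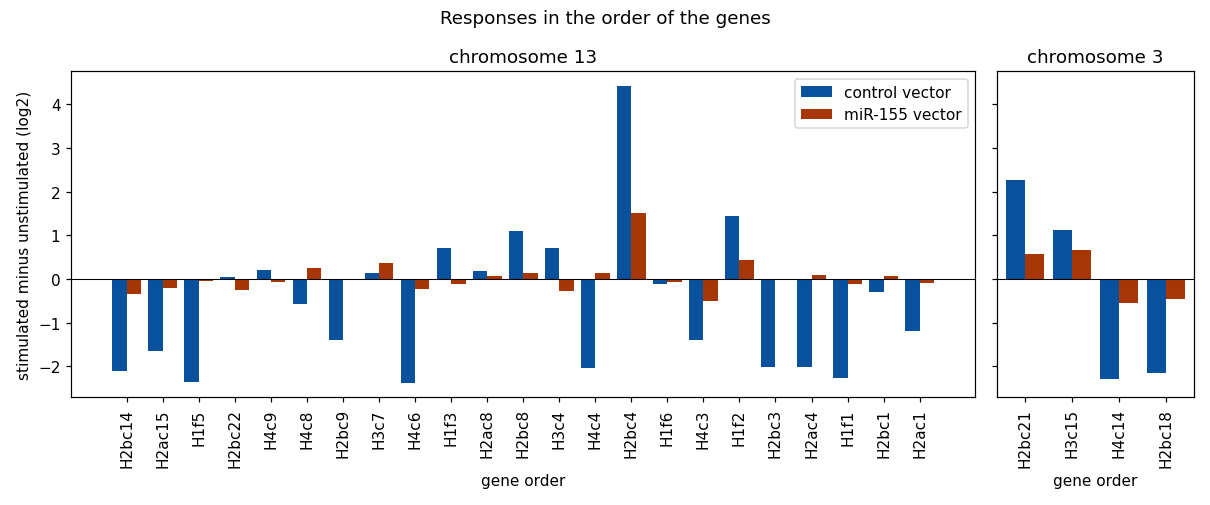
Stimulated minus unstimulated level (vertical axis, log2) for the 23 genes on chromosome 13 and the 4 on chromosome 3, in gene order and not to distance; blue bars are control-vector cells and brown bars miR-155 cells, 1 array difference each. H2bc4 at 4.42 stands between H4c4 at -2.04 and H1f6 at -0.12.

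With the miR-155 vector, 72 h of the cytokines came with smaller differences. None of the 30 genes was at least 1.5-fold lower (2.62% of all genes were), and 2 were at least 1.5-fold higher, against 2.47% of all genes: H2bc4, 2.86-fold higher (1.52) and the 1 gene past 2-fold (0.787% of all genes), and H3c15, 1.58-fold higher (0.66). The median was -0.05 (all genes -0.02). The 13 genes that were lower in control cells had a median of -0.11 here, with 11 below 0 and 2 above, and ranged from -0.55 for H4c14 to 0.14 for H4c4. H4c14, H4c3 (-0.50) and H2bc18 (-0.45) were the 3 genes below the noise reference. For the 8 genes that control cells had higher, the median here was 0.45, with 6 above 0. H2bc21 (0.57), H1f8 (0.47) and H1f2 (0.44) followed H2bc4 and H3c15, while H2bc8 (0.15), H1f3 (-0.11) and H3c4 (-0.27) were within the noise reference. The 26 shared probe sets lay between -0.35 and 0.06.

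The responses of the 2 vectors share no array. All 13 lower and all 8 higher genes had a smaller absolute response in miR-155 cells, groups that were themselves chosen on the control response. Without that choice, 26 of the 30 genes had a smaller one. The same count over all genes was not computed. Over all genes the share at least 1.5-fold lower was 10.4% in control and 2.62% in miR-155 cells. The share at least 1.5-fold higher was 8.72% and 2.47%. Across the 30 genes, which share probes and arrays and are not replicates, the correlation between the responses was 0.75 (Pearson) or 0.57 (Spearman), against 0.44 (Pearson) over all genes. A Spearman value over all genes was not computed. H2bc4 had the largest response in both vectors (4.42 and 1.52), and its weight in the Pearson value was not tested. The response of miR-155 cells minus that of control cells ranged from -2.91 for H2bc4 to 2.32 for H1f5. By this difference 14 of the 30 genes were at least 1.5-fold higher, against 10.3% of all genes, and 6 were at least 1.5-fold lower, against 10.5%. The noise reference for this difference was 0.64, wider than the 1.5-fold cut of 0.585. Past it lay 14 genes upward and 6 downward. At 2-fold, 12 were higher, against 4.55% of all genes, and 2 lower, against 3.2%.

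**Figure D3:**
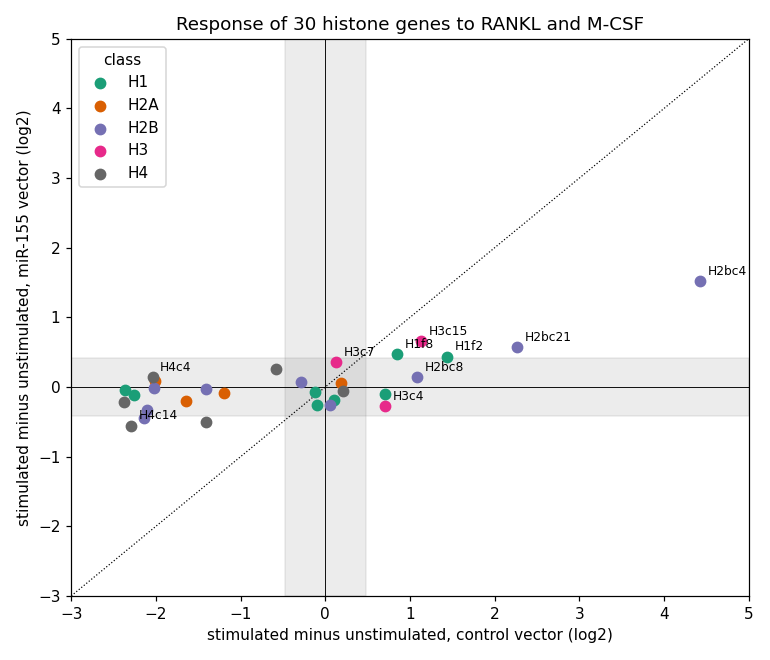
Stimulated minus unstimulated level in control cells (horizontal axis, log2) and in miR-155 cells (vertical axis, log2) for the 30 genes, coloured by class, 1 array difference per axis; grey bands are the noise references of 0.48 and 0.415, and the dotted line marks equal responses. Most genes near -2 on the horizontal axis lie within the band around 0 on the vertical axis. H4c14 (-0.55), H4c3 (-0.50) and H2bc18 (-0.45) lie below that band, and H2bc4 stands at 4.42 and 1.52.

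Without stimulation the histone genes were mostly higher in miR-155 cells. Of the 30 genes, 28 were above 0 (52.7% of all genes were), 17 exceeded the noise reference of 0.37 and 0 fell below it. At least 1.5-fold higher were 9 genes, against 0.873% of all genes, and 0 were at least 1.5-fold lower, against 2.19%. None reached 2-fold, which 0.0451% of all genes did upward. The median was 0.42, against 0.01 over all genes. This comparison does not use the array that stood apart, but its unstimulated control array also serves the comparison of stimulation in control cells.

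The 6 H4 genes had a median of 0.67 and ranged from 0.46 for H4c8 to 0.74 for H4c9, whose levels were 7.68 in control and 8.42 in miR-155 cells. The 9 H2B genes had a median of 0.56, with H2bc8 (0.71), H2bc1 (0.67), H2bc4 (0.66) and H2bc3 (0.64) at least 1.5-fold higher and H2bc18 (0.29) the lowest. H2ac4, at 8.48 in control and 9.31 in miR-155 cells, had the largest difference of all, 0.83 or 1.77-fold. The 13 genes lower in stimulated control cells, a grouping that uses the same unstimulated control array, had a median of 0.53 with 13 above 0, and the 8 higher ones a median of 0.31 with 7 above 0; this difference was not tested. The H1 genes had a median of 0.28, with H1f1 at 0.45 and H1f3 at 0.43, and the germ-line subtypes H1f6, H1f7 and H1f8, near the floor, at -0.04, 0.03 and -0.04. The 3 H3 genes lay between 0.13 and 0.31. The shared probe sets were all above 0. Those of many genes lay at 0.26 to 0.38 for H3, 0.35 to 0.42 for H2B, 0.37 to 0.40 for H4 and 0.16 to 0.20 for H2A. The H2A sets, most H3 sets and some H2B and H4 sets were thus within the noise reference. The probe set of H4c11 and H4c17 read 6.22 and 7.33, a difference of 1.11.

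**Figure D4:**
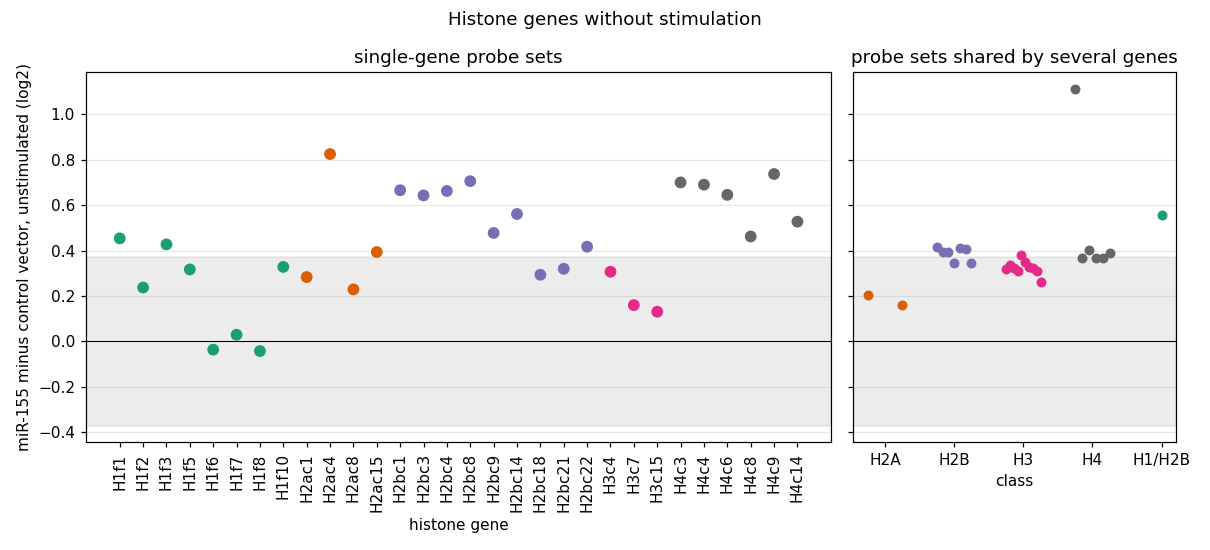
Level in miR-155 minus control cells without stimulation (vertical axis, log2), 1 point per probe set, for the 30 single-gene probe sets on the left and the 26 probe sets shared by several genes on the right, coloured by class; the grey band is the noise reference of 0.37. Of the 30 points on the left, 28 lie above 0, and all points on the right do. On the right, the H2A points, most H3 points and some H2B and H4 points lie within the band.

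With stimulation, 15 of the 30 genes were at least 1.5-fold higher in miR-155 than in control cells, against 8.57% of all genes, and all 15 were at least 2-fold higher, against 3.81%. They comprised the 13 genes that were lower in stimulated control cells together with H4c8 (1.29) and H2bc1 (1.02). At least 1.5-fold lower were 4 genes, against 9.52% of all genes: H2bc4 (-2.24), H2bc21 (-1.37), H1f2 (-0.76) and H3c4 (-0.67), the first 2 of them at least 2-fold, against 3.79%. The median was 0.75 (all genes -0.03). H2ac4 (2.92), H4c4 (2.87), H4c6 (2.80), H2bc3 (2.65) and H1f5 (2.64) had the largest differences. This comparison uses the stimulated control array, as does the comparison of stimulation in control cells.

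Genes that act on histone genes and their RNA are read against the same shares of all genes in stimulated control cells, 10.4% lower and 8.72% higher. Of 7 measured genes that drive histone transcription, 5 were at least 1.5-fold lower and none higher in control cells, with a list median of -1.07 (0.02 over all genes). Npat, the coactivator that cyclin E and Cdk2 switch on at histone clusters, read 6.83 and 5.66 in control cells and 7.05 and 7.15 in miR-155 cells. Casp8ap2, also called FLASH, which works in histone transcription and processing, read 5.97 and 4.90 against 5.85 and 6.004. Ccne2 (-1.87) and Ccne1 (-1.57), the E-type cyclins, were the lowest. In miR-155 cells none of the 7 passed 1.5-fold for stimulation, and E2f1, an S phase transcription factor, was the lowest at -0.58.

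Of 14 genes for processing and decay of histone messenger RNA, 4 were at least 1.5-fold lower in stimulated control cells, none was higher, and the median was -0.32, beside the 10.4% and 8.72% of all genes. Slbp, which binds the stem-loop and carries the messenger through its life, read 8.04 and 6.49 in control cells and 8.21 and 8.26 in miR-155 cells, a difference of -1.55 against 0.05. Srrt, a cap-complex partner (-1.06), Eri1, the exonuclease that trims the stem-loop end (-0.98), and Upf1, a helicase of RNA decay (-0.81), were the others. The U7 particle genes Lsm10 (0.17) and Lsm11 (-0.46) were within the noise reference in control cells. In miR-155 cells none of the 14 passed 1.5-fold for stimulation, though Upf1 (-0.52) and Lsm10 (-0.46) were past the noise reference of 0.415. By the difference of the responses, Lsm10 (-0.63) was the 1 gene at least 1.5-fold lower, against 10.5% of all genes. Its value lay within the noise reference for that difference, 0.64. At least 1.5-fold higher by the same difference were 3 genes, against 10.3%.

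Histone chaperones, which carry histones to DNA, were at least 1.5-fold lower in stimulated control cells in 16 of 21 cases (10.4% of all genes), with a median of -1.0045. Asf1b, which hands H3 and H4 to the replication fork, was the lowest at -3.07, followed by Mms22l (-1.94), a partner in repair of stalled forks, Atrx (-1.67), a remodeller that places H3.3, and Anp32e (-1.66), which removes H2A.Z. The importin gene Ipo4 was the 1 gene at least 1.5-fold higher (0.59). Tonsl, a reader of new H4 (-0.88), and Atrx (0.89) passed 1.5-fold for stimulation in miR-155 cells, and Atrx was lower in these without stimulation (-1.26). Of 9 measured genes of the histone variant list, which includes H1f10, 5 were at least 1.5-fold lower (10.4% of all genes) and none higher: H2ax (-1.96), the variant phosphorylated at DNA breaks, Cenpa (-1.85), the centromeric H3, H2az2 (-1.52), H2az1 (-0.88) and 1 other. H2ax was at -0.66 with stimulation in miR-155 cells, and was also the 1 variant gene at least 1.5-fold higher in unstimulated miR-155 cells (0.91), at 9.45 in control and 10.35 in miR-155 cells. The probe set of H3f3a, a gene for the replication-independent H3.3, lay below the floor on every array. Whether that probe set reads the gene well was not tested, so the value does not give the level of H3.3.

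Genes of DNA replication and mitosis were lower alongside the lower histone group. All 16 measured S phase genes were at least 1.5-fold lower in stimulated control cells, with a median of -1.97, led by Ccna2 (-2.82), and all 9 mitosis genes were, with a median of -2.54, led by Kif11 (-3.07). In miR-155 cells the medians for stimulation were -0.18 and -0.04, and of these genes Plk1, a mitotic kinase, passed 1.5-fold (-0.62). Without stimulation they were 0.17 and 0.17 higher in miR-155 cells. There 1 of 16 S phase genes, Tyms (0.59), and 0 of 9 mitosis genes passed 1.5-fold, beside 9 of 30 histone genes. Of all genes, 0.873% passed it upward and 2.19% downward. Tyms lay just past the cut of 0.585 and Mcm7 (0.55) just short of it. The difference between these lists was not tested. Among cell cycle inhibitors and retinoblastoma family genes, 5 of 9 were at least 1.5-fold lower (10.4% of all genes) in stimulated control cells, led by Rbl1 (-2.47), and Cdkn1b, which encodes the inhibitor p27, was higher (1.05). In bulk RNA, fewer cells in S phase and less histone RNA in each such cell cannot be told apart.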

How the data were processed

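RNA from 4 samples was hybridised to Affymetrix mouse arrays, per the labels' protocols, starting from 100 ng of total RNA. The labels do not say how the RNA was primed, so it is not known from them whether messengers without a poly(A) tail were read as well as those with one. Each deposited value is a log2 expression level. Per the submitters' processing notes, RMA and Partek were used, with versions and build not given in the sources used here. RMA makes the distributions of single-probe values equal between arrays, which hides any change in total RNA per cell. The array medians of the deposited probe set values ranged from 4.58 to 4.62.

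The platform annotation gave 1 symbol to 21789 of 35557 probe sets, several to 1621 and none to 12147. The highest-mean probe set stood for a gene. All 30 histone gene IDs matched the RefSeq table. Differences of log2 values were taken between arrays, and counts and medians cover all 30 genes without a filter, beside the same over all genes. With 1 array per group no test was made; an additive model would take the interaction as its error and was not fitted. The steps were checked on simulated data in which all single-gene histone probe sets were shifted alike. That checks the computation only and says nothing about noise in the real arrays. Alternatives were renewed quantile normalization, median centring, filters on low values, averaging of probe sets, other choices of probe sets, leaving out H1 genes and a 2-fold threshold. The genes named are the 30 members, with array values for the H1 genes and for members with large responses in each class, and up to 4 genes of each other list by size of difference in any 1 of the comparisons, beside Slbp, Npat and Casp8ap2. Ipo4 and H3f3a were named after their values were seen. Members and lists were chosen with earlier results of these data known. Python 3.11.15, numpy 2.4.6, pandas 2.3.3 and matplotlib 3.10.9 were used.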

Additional observations from a re-analysis of the deposited data

Results flagged for a closer look

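Stimulation went in opposite directions in the 2 vectors for 9 of the 30 genes (30%), a smaller share than the 43.9% of all genes. With 1 array per group this difference was not tested, and in miR-155 cells 0 of the 9 exceeded the noise reference, so the sign there is not reliable. The response of miR-155 cells minus that of control cells was 2.18 for H4c4, 2.10 for H2ac4, 0.83 for H4c8, 0.36 for H2bc1, -0.27 for H4c9, -0.29 for H1f7, -0.31 for H2bc22, -0.81 for H1f3 and -0.98 for H3c4. In control cells 5 of them, H4c4, H2ac4, H4c8, H1f3 and H3c4, exceeded the noise reference.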

How the results depend on the processing

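No paired test was made, as each group has 1 array and the groups share 1 replicate number, and no array could be left out of a comparison. An additive model over vector and stimulation could have been fitted, with the interaction as its error, and was not. Medians and counts were recomputed under 9 alternatives, of which 1, the inclusion of every probe set with at least 1 histone symbol, was chosen after seeing the data. Of 130 recomputed values, 107 changed by less than the SD of the receptor probe sets (medians) or within 1.5 times (counts), 23 changed more, and no median changed sign. Averaging of probe sets could change nothing, since each of the 30 genes has 1 probe set, and accounts for 15 of the 107. Renewed quantile normalization and median centring were among the former for every value. With probe sets that carry only histone symbols (47 in all), the median in control cells was -1.76, 30 probe sets were lower, the median with stimulation in miR-155 against control cells was 1.84 with 32 higher, and the difference of the responses was 1.47 with 31 higher. With at least 1 histone symbol (56 in all), these were -1.76, 39, 1.85, 41, 1.51 and 40. Without the H1 genes the medians were -0.89 for control stimulation, 1.34 for the stimulated vectors and 0.87 for the difference of the responses, and 5 genes were higher in control cells. With a filter on the mean or the highest value, the median for the stimulated vectors was 1.16 or 1.02. At 2-fold, 5 genes were higher in control and 1 in miR-155 cells with stimulation, 0 were higher in unstimulated miR-155 cells, 2 were lower in stimulated miR-155 than control cells, and 2 were lower by the difference of the responses. Signal limits H1f6, H1f8 and H3c7, which lie near or below the floor.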
